A study of Mus musculus with 4 samples.

Results

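Spots of mouse olfactory bulb were ranked by an endothelial score, and the 460 spots at its top, of 4616 kept spots, are described here. The score of a spot is the summed count of Cldn5, Ly6c1, Slco1a4, Itm2a and Pecam1 divided by all counts of the spot. Counts are unique molecular identifiers (UMIs), each of which stands for 1 captured transcript molecule. Spots with at least 500 UMIs were kept, and in each library the 10% of spots with the highest score were taken, with ties broken by file order. This gave 166, 71, 129 and 94 high-score spots in libraries 1 to 4, which were set against the other 1496, 644, 1167 and 849 kept spots of the same library.

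The study placed coronal sections of fresh-frozen bulb on Visium slides, whose barcoded spots each collect polyadenylated RNA from a patch of section in which cells of several types can lie. One mouse is labelled control. The other is labelled mutant with blockade of vascular endothelial growth factor (VEGF) at E13.5, by a transgenic soluble form of its receptor VEGFR1 that was regulated by tetracycline and driven in the brain by camk2a-tTa. The mice were examined at 5 months. The design text describes the bulb of this mouse as degenerated. The labels do not say which alleles of the transgenes the control mouse carried. Each condition is 1 mouse on 2 capture areas, with 3 sections of the control and 4 of the mutant in all. The spots carry a library number from 1 to 4 that matches no label, so no library is assigned to a mouse, no comparison of control with mutant was made and no p-value is given. In a patch of tissue, fewer cells of a type and less RNA per cell cannot be told apart.

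Endothelial cells line all blood vessels. In brain they form the blood-brain barrier: tight junctions close the gaps between cells, and carriers and efflux pumps decide what crosses. Pericytes and smooth muscle cells wrap the vessels, a basement membrane lies between them, and larger vessels run through the leptomeninges, where fibroblasts and border macrophages surround them. Signals through VEGF receptors keep vessels growing and alive, and Wnt and Norrin signals keep the barrier closed.

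The 5 score genes serve different sides of this cell. Cldn5 encodes claudin-5, the main tight-junction claudin of brain endothelium, Slco1a4 an organic anion transporter, Pecam1 an adhesion protein of endothelial contacts, Ly6c1 a surface protein of brain endothelium, and Itm2a a membrane protein. Flt1 encodes VEGFR1, the receptor whose soluble form the mutant transgene supplies. Flt1 was left out of the score on purpose, and the counts do not separate endogenous from transgenic transcripts. RefSeq promoters (GRCm38.p6, 250 bases before to 50 after the start) were found for 4 of the 5 score genes and for Flt1. Those of Cldn5 (chr16:18776597-18776896, plus strand), Itm2a (chrX:107403311-107403610, minus strand) and Flt1 (chr5:147725962-147726261, minus strand) are shown, as a score gene without and one with a match and the receptor gene held out of the score. Capitals mark AGGAAG or its reverse complement CTTCCT, a core that ETS-family factors of endothelial cells bind.
Cldn5: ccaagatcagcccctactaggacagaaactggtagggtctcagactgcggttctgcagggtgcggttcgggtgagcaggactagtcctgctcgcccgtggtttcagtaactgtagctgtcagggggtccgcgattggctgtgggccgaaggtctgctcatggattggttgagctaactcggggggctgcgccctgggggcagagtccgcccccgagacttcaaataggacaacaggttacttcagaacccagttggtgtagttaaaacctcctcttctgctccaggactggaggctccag
Itm2a: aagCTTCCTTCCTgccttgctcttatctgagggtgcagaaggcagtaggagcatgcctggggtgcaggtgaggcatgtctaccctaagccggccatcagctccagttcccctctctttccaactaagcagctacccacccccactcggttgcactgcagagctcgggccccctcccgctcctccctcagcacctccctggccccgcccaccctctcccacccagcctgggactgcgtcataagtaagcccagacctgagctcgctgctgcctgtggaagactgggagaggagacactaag
Flt1: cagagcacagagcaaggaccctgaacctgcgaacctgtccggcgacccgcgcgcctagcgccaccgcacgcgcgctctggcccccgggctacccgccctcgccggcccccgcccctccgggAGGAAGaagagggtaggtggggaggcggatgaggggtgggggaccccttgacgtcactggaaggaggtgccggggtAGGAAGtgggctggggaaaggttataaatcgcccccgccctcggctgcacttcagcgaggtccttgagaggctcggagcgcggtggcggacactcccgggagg
Itm2a and Flt1 hold 2 matches each and Cldn5 none, and overlapping matches were counted. Of all 32851 promoters in the table, 35.4% hold at least 1 match, so a match in these windows is common and is given as a description only.

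High-score spots were shallow. Their median was 5785, 6631, 8064 and 7301 UMIs in libraries 1 to 4, against 8201.5, 7328, 9357 and 10152 in the other spots. They held 1050732, 468424, 1008299 and 738284 UMIs in all. Mitochondrial transcripts made up 10.8%, 10.996%, 7.67% and 8.28% of the UMIs of high-score spots and 8.78%, 9.40%, 7.31% and 7.39% of the others. The part of depth and of this share in the results was not tested beyond the alternatives in the closing section. The library pairs share 62 to 603 spot barcodes, and every pair differed by more than counting noise, with a chi-square of at least 2.71 for each degree of freedom. Levels are counts per 1e6 UMIs (CPM), summed over the spots of a set, and intervals are exact 95% intervals that cover counting error only.

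The score rests on few molecules. The median high-score spot held 7, 7, 7 and 8 UMIs of the 5 genes, and the median other spot 2, 1, 1 and 2. In library 1, 16 high-score spots entered with a single such UMI, and 22, 2, 11 and 4 spots had fewer than 3. At the threshold the last spot taken scored 847, 741, 749 and 748 per 1e6 UMIs and the first spot left out 845, 739, 747 and 738. In library 4 the last spot taken had 1 such UMI of 1337 and the first left out 7 of 9486. All 5 genes were seen in 16, 4, 10 and 7 high-score spots, and a single one of them in 21, 1, 11 and 6.

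The values that chose the spots are a description. Cldn5 stood at 306, 241, 400 and 406 CPM in high-score spots of libraries 1 to 4 and at 53.5, 45.6, 63.8 and 65.8 in the others. Ly6c1 stood at 396, 348, 277 and 267 CPM against 104, 94.0, 58.7 and 59.3, highest in library 1. Counts of Ly6c1 and its near copy Ly6c2 could be split by the authors' counting, but Ly6c2 has only 26 UMIs in all kept spots. Slco1a4 stood at 156, 109, 108 and 119 CPM against 30.03, 23.3, 19.1 and 19.7.

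Itm2a stood at 291, 331, 290 and 245 CPM in high-score spots and at 72.7, 70.7, 53.4 and 51.2 in the others. Pecam1 was the scarcest of the 5 genes, with 46, 19, 34 and 19 UMIs in high-score spots. When each gene in turn was left out and the spots were chosen by the other 4, the left-out gene was still higher in the chosen spots of every library. Its ratio of chosen to other spots was 3.25, 3.56, 2.52 and 2.84 for Cldn5 and 2.21, 2.25, 2.94 and 2.20 for Ly6c1. The ratio was 3.23, 2.32, 4.23 and 3.81 for Slco1a4. For Itm2a it was 2.58, 2.65, 2.94 and 3.25, and for Pecam1 2.46, 2.26, 2.30 and 3.35. The lower bound of each of these 20 intervals was above 1.

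Endothelial genes outside the score were higher in the high-score spots, and a list of fibroblast genes of the leptomeninges had a higher summed ratio than the endothelial list in every library. The label of endothelium-rich spots is thus borne out only in part, and the spots are called by their score. Of 28 measured genes of a list of 30 endothelial genes, 16 were more than 2-fold higher in each of the 4 libraries, where 3.50% of all 13418 genes with at least 100 UMIs were. Of the 470 genes past 2-fold, 27 had fewer than 3 UMIs in high-score spots of some library. Another 10 of the 28 had ratios above 1 in every library, and none was below 1 in every library. The median log2 ratio of the list was 1.303, 1.26, 1.94 and 1.63, beside -0.06, -0.08, -0.12 and -0.10 for all genes tested. The summed list stood at 897, 877, 1239 and 1116 CPM in high-score spots and at 375, 356, 347 and 359 in the others. In high-score spots it was lowest in libraries 1 and 2 and highest in library 3, while the other spots differed little between libraries.

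Receptors come first. Flt1 had 77, 34, 46 and 46 UMIs in high-score spots, which is 73.3, 72.6, 45.6 and 62.3 CPM, against 34.8, 30.9, 22.6 and 22.2 CPM in the others. At least 1 UMI of Flt1 was seen in 56, 23, 35 and 33 high-score spots. The ratio was 2.10 (1.63 to 2.69), 2.35 (1.57 to 3.43), 2.01 (1.44 to 2.76) and 2.81 (1.99 to 3.89), so the intervals of the 4 libraries overlap. Transcripts of the transgene that carry Flt1 sequence would be counted here too. Kdr, which encodes VEGFR2, the main signalling receptor for VEGF, stood at 19.0, 14.9, 33.7 and 19.0 CPM against 6.53, 6.10, 7.29 and 7.16. Tie1 and Tek encode the receptor pair of the angiopoietin pathway. Tie1 had ratios of 2.47, 5.97, 4.99 and 4.30, and Tek 2.16, 2.40, 5.18 and 1.96, so Tek missed the 2-fold threshold in library 4 alone.

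The ligand genes Vegfa and Vegfb showed no such difference. Vegfa stood at 46.6, 66.2, 192 and 207 CPM in high-score spots and at 53.9, 52.6, 188 and 159 in the others. Vegfb, another ligand of VEGFR1, had ratios of 0.909, 1.01, 0.991 and 0.733. Of the 7 measured genes of the VEGF list only the receptors Flt1 and Kdr were over 2-fold higher in every library. In all, 4 of the 7 were above 1 in every library. The highest levels of Vegfa were in libraries 3 and 4, in high-score and other spots alike.

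**Figure D1:**
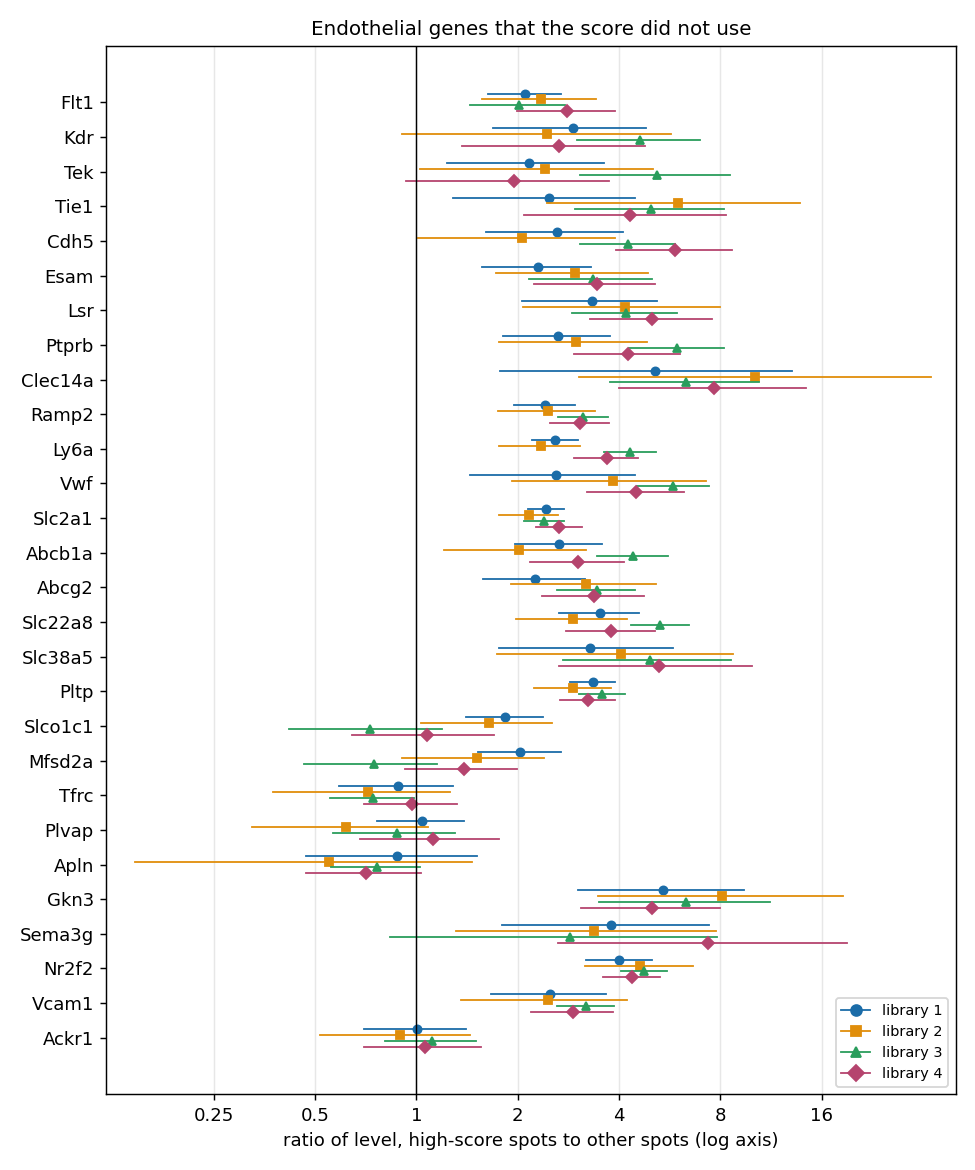
Ratio of the level in high-score spots to that in the other spots of the same library, on a log axis, for 28 genes that the score did not use. Points are the 4 libraries and bars exact 95% intervals for counting error. Receptors, junction proteins and pumps lie to the right of 1, while Slco1c1 and Mfsd2a lie to the left of 1 in library 3 and Tfrc, Plvap, Apln and Ackr1 lie at or below 1.12 in every library.

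Genes of endothelial contacts and surface followed. Cdh5, the cadherin of endothelial junctions, stood at 22.8, 25.6, 53.6 and 54.2 CPM in high-score spots against 8.73, 12.4, 12.6 and 9.21. Its intervals in high-score spots were 14.6 to 34.0, 13.2 to 44.7, 40.2 to 69.9 and 38.7 to 73.8. Esam, an endothelial adhesion molecule, had ratios of 2.31, 2.96, 3.34 and 3.43. Lsr, a protein of the points where several cells meet, had 3.33, 4.18, 4.19 and 5.02. These 3 were the junction genes over 2-fold higher in every library, of 11 measured. Ocln, which encodes occludin, missed the threshold in library 4 at 1.81, and Cldn12, another claudin, was at 0.802, 0.664, 0.792 and 1.499.

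Clec14a, a C-type lectin of endothelium, ranked first of the endothelial list by its lowest library, with ratios of 5.10, 10.2, 6.32 and 7.66, from 7, 7, 26 and 18 UMIs in high-score spots. In library 3 Icam2 and Mmrn2 of the list were above it, at 8.47 and 7.20. Ptprb, a phosphatase that acts on the receptor Tek, stood at 36.2, 47.0, 59.5 and 59.6 CPM against 13.7, 15.8, 9.98 and 13.98. Ramp2, a partner of the adrenomedullin receptor, stood at 107, 100, 171 and 167 CPM against 44.1, 40.8, 54.5 and 54.5. Both were high in every library. The transcription factor genes Erg, Sox17 and Sox18 were each over 2-fold higher in every library, from 20, 48 and 63 UMIs in all high-score spots. Robo4, a guidance receptor of endothelium, had a single UMI in high-score spots of library 2, a ratio of 0.338 (0.00829 to 2.04), and 15, 11 and 10 UMIs elsewhere with ratios of 2.499, 2.62 and 3.22.

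Transport genes of the barrier were split. Of 17 measured genes, 6 were over 2-fold higher in every library, 11 were above 1 in every library and 2 were below 1 in every library. Over all genes tested 3.50% were over 2-fold higher in every library, a share that also applies to the lists below. The glucose transporter gene Slc2a1 stood at 301, 254, 253 and 270 CPM in high-score spots against 123, 117, 105 and 102, with ratios of 2.44, 2.17, 2.40 and 2.65. The efflux pump genes Abcb1a and Abcg2 had ratios of 2.66, 2.01, 4.41 and 3.02, and of 2.26, 3.20, 3.44 and 3.38. Slc22a8, an organic anion transporter, stood at 68.5, 81.1, 149 and 79.9 CPM against 19.5, 27.8, 28.0 and 21.0. Slc38a5, an amino acid transporter, and Pltp, a phospholipid transfer protein, were the other two. Pltp, with more UMIs, had ratios of 3.34, 2.93, 3.56 and 3.23.

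A pair of the barrier's carriers behaved otherwise. Mfsd2a, the lipid transporter that keeps transcytosis low, stood at 58.1, 44.8, 21.8 and 43.3 CPM in high-score spots against 28.5, 29.7, 29.1 and 31.4 in the others. The ratio was 2.04 (1.53 to 2.68), 1.51 (0.908 to 2.40), 0.751 (0.464 to 1.16) and 1.38 (0.927 to 1.996). Slco1c1, the thyroid hormone transporter that astrocytes express as well, stood at 65.7, 53.4, 16.9 and 27.1 CPM against 35.7, 32.4, 23.1 and 25.2. Both genes were lowest in library 3, the library with the highest level of the endothelial list, and the intervals of their ratios there include 1. Tfrc, the transferrin receptor gene, which other brain cells also express, had ratios of 0.884, 0.717, 0.745 and 0.973. Spock2, the other gene below 1 in every library, had 0.947, 0.887, 0.821 and 0.811.

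Marker genes of arterial and of venous endothelium were split as well. Gkn3, a marker of arterial endothelium, stood at 19.0, 25.6, 19.8 and 36.6 CPM in high-score spots against 3.51, 3.15, 3.12 and 7.28. Sema3g, also arterial, had ratios of 3.78, 3.38, 2.86 and 7.33 from 12, 8, 5 and 8 UMIs. In all, 4 of 8 measured arterial genes were over 2-fold higher in every library, with Alpl and Dll4 the others. Efnb2, which neurons also express, was at 0.566, 1.10, 1.02 and 0.966.

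Of 8 venous genes 4 were over 2-fold higher in every library. Nr2f2, the venous transcription factor gene that mural cells and fibroblasts express too, stood at 101, 96.1, 222 and 192 CPM against 25.1, 20.8, 46.8 and 44.0. Vwf, which encodes von Willebrand factor, stood at 16.2, 29.9, 99.2 and 71.8 CPM against 6.20, 7.78, 17.1 and 15.9. Vcam1, a leukocyte adhesion molecule, stood at 31.4, 36.3, 134 and 86.7 CPM against 12.6, 14.7, 41.9 and 29.7. Levels of these 3 genes were highest in library 3 in both sets of spots. Icam1, another such molecule, had 3, 4, 55 and 24 UMIs in high-score spots, with ratios of 1.13 (0.221 to 3.62), 2.39 (0.585 to 7.32), 3.905 (2.82 to 5.33) and 2.86 (1.75 to 4.4999). Ackr1, the chemokine receptor of venules, was at 1.01, 0.891, 1.12 and 1.06.

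None of 6 measured genes of growing or leaky vessels was over 2-fold higher in every library. Over all genes tested 3.50% were, so a count of 0 among 6 is no result. Plvap, which forms the diaphragms of permeable endothelium, stood at 48.5, 27.8, 25.8 and 28.4 CPM in high-score spots against 46.7, 44.8, 29.4 and 25.4. Apln, a ligand made by tip cells and also by neurons, had ratios of 0.878, 0.549, 0.766 and 0.711. For Plvap and for Ackr1 the interval of the ratio includes 1 in every library, and for Plvap in library 2 it runs from 0.325 to 1.08.

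Among 18 genes of Wnt and Norrin signalling, 3 were over 2-fold higher in every library. Apcdd1 and Nkd1, targets of the pathway, had ratios of 3.08, 2.91, 2.49 and 3.38, and of 2.56, 4.54, 2.06 and 2.15. Adgra2, the endothelial co-receptor for Wnt7 ligands, stood at 35.2, 49.1, 74.4 and 65.0 CPM against 16.6, 13.46, 14.9 and 16.03. The ligand genes, which glia and neurons express, did not share this. Wnt7a was at 1.21, 1.37, 0.933 and 0.725, and Wnt7b was below 1 in every library at 0.696, 0.688, 0.596 and 0.703.

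Basement membrane genes were over 2-fold higher in every library for 6 of 11. Nid1 and Nid2 encode nidogens, which link laminin to collagen IV. Nid1 stood at 38.1, 40.6, 65.5 and 70.4 CPM against 10.3, 7.57, 14.1 and 13.4, and Nid2 had ratios of 4.94, 4.41, 4.38 and 4.19. Col4a1, a collagen IV chain, had 2.35, 1.64, 2.504 and 1.92. Of 15 genes of the Notch and BMP pathways, 5 were over 2-fold higher in every library, among them the BMP receptor gene Acvrl1 and its targets Id1 and Id3.

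Mural cell genes were also higher in high-score spots. The pericyte list stood at 686, 600, 636 and 596 CPM in high-score spots against 246, 224, 199 and 217. Of its 12 genes 3 were over 2-fold higher in every library, namely Vtn, Pdgfrb and Anpep. Vtn, which encodes vitronectin, stood at 348, 382, 338 and 307 CPM against 109, 106, 76.4 and 83.5. Kcnj8 and Abcc9, the channel subunits that mark brain pericytes, had few UMIs, and their 8 ratios ran from 0.882 to 2.68.

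The smooth muscle list stood at 169, 348, 467 and 385 CPM in high-score spots against 60.1, 74.2, 117 and 79.9, lowest in library 1. Acta2, smooth muscle actin, had ratios of 4.002, 5.47, 4.54 and 6.19. Myh11, the smooth muscle myosin, had 3.18, 3.10, 5.64 and 9.13. In all, 5 of 6 measured genes of this list were over 2-fold higher in every library.

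Fibroblasts of the leptomeninges make the collagen-rich matrix around surface vessels. Of the 12 genes of their list, 11 were over 2-fold higher in every library, all except Pdgfra, which oligodendrocyte precursors express as well. The list stood at 1047, 1347, 2849 and 2435 CPM in high-score spots against 257, 298, 689 and 614. The ratio was 4.08 (3.80 to 4.37), 4.52 (4.11 to 4.97), 4.13 (3.96 to 4.31) and 3.97 (3.76 to 4.18), above that of the endothelial list in every library. Dcn, which encodes the matrix proteoglycan decorin, stood at 298, 342, 529 and 547 CPM against 31.1, 38.3, 89.2 and 93.3. Igf2, a growth factor made in the leptomeninges, stood at 113, 145, 447 and 309 CPM against 25.5, 35.5, 81.0 and 72.1.

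The 20 genes outside the score with the highest ratio, ranked by the library nearest to 1, were mostly on no list. Among them are Omd, Itih2, Dcn, Rasl12, Osr1, Tspan18, Kcnj13, Ptgds, Slc22a6, Slc13a4, Gkn3, Slc6a13, Clec14a, Ogn, Colec12, Aldh1a2, Slc6a12, Cped1 and Ptgdr. Of the 20, 4 are on the fibroblast list, 1 each on the endothelial and the arterial list, and 14 on none. Itih2, an inhibitor heavy chain that binds hyaluronan, had ratios of 6.11, 6.64, 6.66 and 7.19. Ptgds, the prostaglandin D synthase abundant in leptomeninges, had 5.19, 5.41, 6.18 and 5.17. Aldh1a2, the retinoic acid synthesis enzyme of the meninges, had 6.51, 5.40, 5.91 and 4.73. The carriers Slc6a13, for GABA and taurine, and Slc13a4, for sulfate, ran from 4.98 to 7.20 and from 5.02 to 5.55.

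Over 2-fold lower in every library were 41 genes, 0.306% of those tested. Of these, 28 had fewer than 3 UMIs in high-score spots of some library, so only 13 rest on at least 3 UMIs in each. The 10 with the lowest ratio include Prdm8, Rbfox1, Spag6, Sstr3, Ccnb1, Fam110c, Klk6 and Kcnk15. Prdm8 and Ccnb1 had no UMI in high-score spots of libraries 1 and 2 and at most 7 in the other spots, so their ratio there depends on the prior count. Kcnk15, a potassium channel, had 11, 5, 5 and 2 UMIs and ratios of 0.275, 0.330, 0.391 and 0.305 (0.0364 to 1.14 in library 4).

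**Figure D2:**
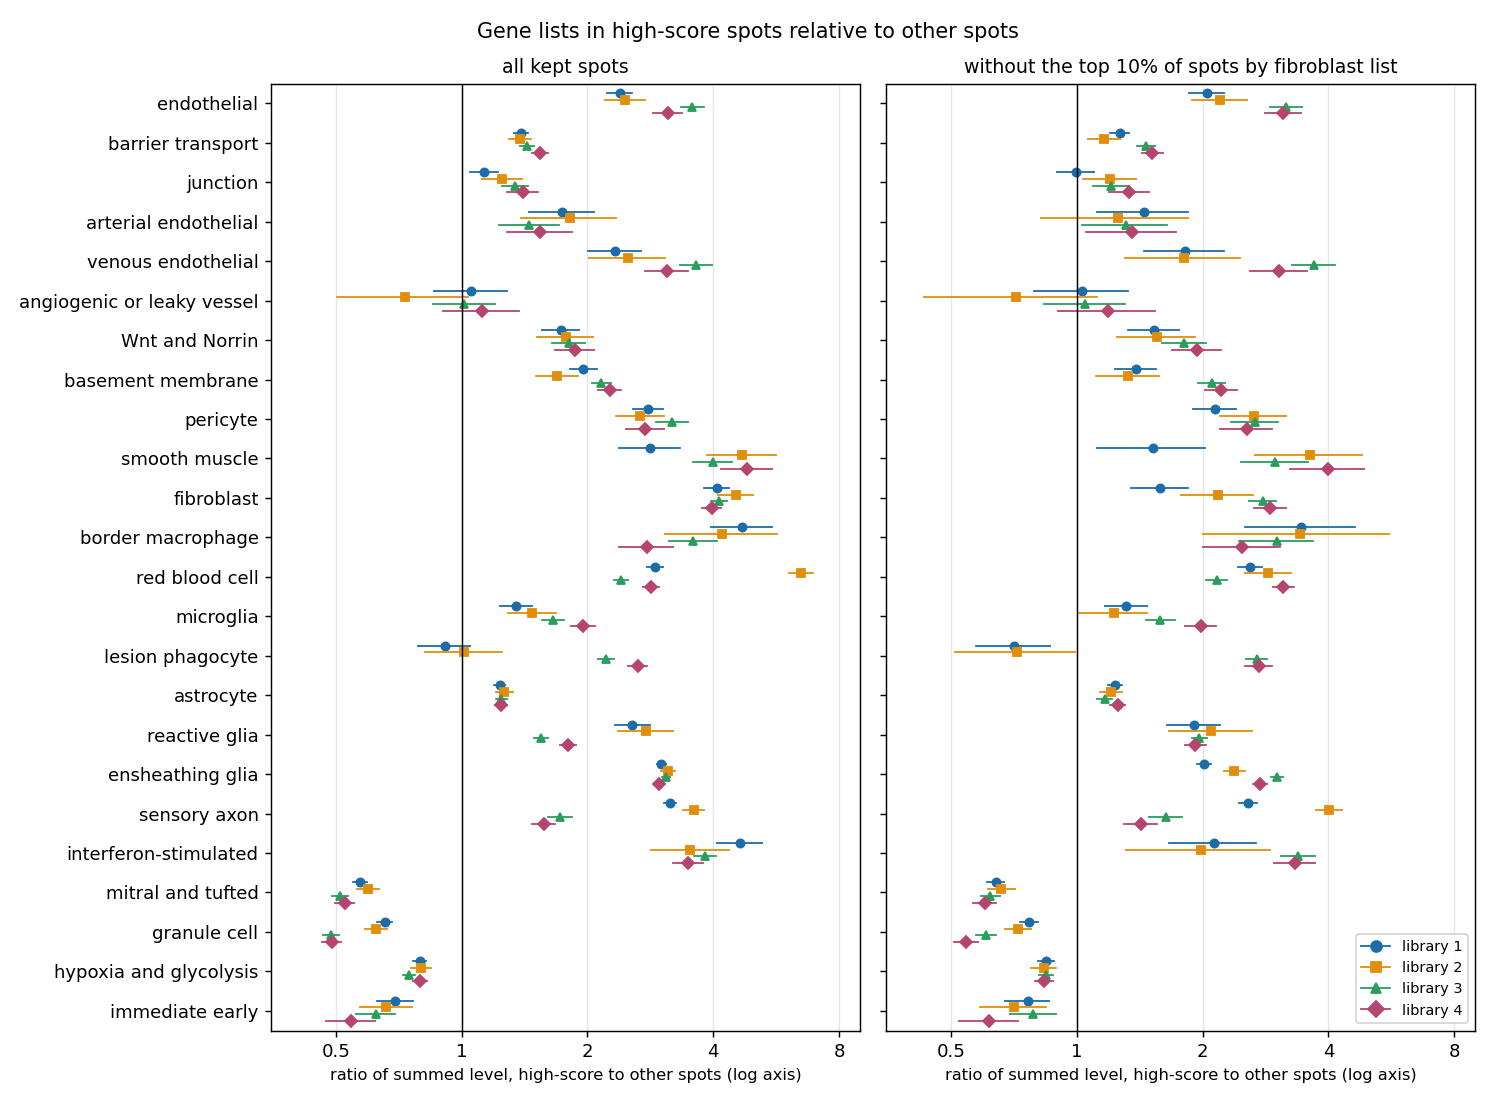
Ratio of the summed level of 24 gene lists in high-score spots to that in the other spots, on a log axis, over all kept spots (left) and with the top 10% of spots by the fibroblast list removed from both sets (right). Points are the 4 libraries and bars exact 95% intervals for counting error. On the left the fibroblast list lies between 3.97 and 4.52 and the endothelial list between 2.39 and 3.57, and on the right the fibroblast list lies between 1.58 and 2.90 and the endothelial list between 2.05 and 3.17. The removal was made by the fibroblast list itself, so its lower ratio on the right is no finding.

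Blood and immune cells of the vessel border were also richer. Border macrophage genes stood at 191, 132, 288 and 295 CPM in high-score spots against 40.8, 31.5, 80.3 and 107, with 4 of 6 measured genes over 2-fold higher in every library. Mrc1, the mannose receptor of these macrophages, had ratios of 4.84, 2.99, 8.76 and 6.34. Globin and other red cell genes had summed ratios of 2.90, 6.50, 2.41 and 2.84, with library 2 apart, and 5 of 6 were over 2-fold higher in every library, Alas2 from only 4, 2, 9 and 5 UMIs. The globin genes are near copies, so their separate counts are uncertain.

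The microglia and astrocyte lists had lower summed ratios than the endothelial list in every library. The microglia list had ratios of 1.35, 1.47, 1.65 and 1.95, and 7 of its 9 genes were above 1 in every library. The astrocyte list had ratios of 1.23, 1.27, 1.24 and 1.24, and 4 of its 10 genes were above 1 in every library. No gene of either list was over 2-fold higher in every library. Over all genes tested 3.50% were, so these counts of 0 are no result. Genes of lesion phagocytes had ratios of 0.910, 1.02, 2.21 and 2.64, and only Lyz2, a lysozyme of myeloid cells, was over 2-fold higher in every library, of 8. Interferon-stimulated genes stood at 345, 252, 1311 and 1010 CPM in high-score spots against 74.5, 71.5, 343 and 290, with 4 of 8 over 2-fold higher in every library. Ifitm3, a restriction factor that endothelium and meninges carry at rest, had ratios of 5.19, 5.04, 4.10 and 3.86.

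Ensheathing glia wrap the sensory axons that enter the bulb at its surface, beneath the meninges. Their list had ratios of 3.003, 3.12, 3.08 and 2.96, with 4 of 9 genes over 2-fold higher in every library. Fabp7, a lipid-binding protein of these glia, had ratios of 3.02, 3.04, 2.89 and 3.46. Genes of sensory axons had ratios of 3.15, 3.59, 1.72 and 1.57. Omp, the olfactory marker protein, stood at 353, 295, 88.3 and 97.5 CPM against 95.1, 61.2, 29.8 and 62.3.

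Neuronal genes were lower. The list of mitral and tufted cells, the output neurons of the bulb, stood at 2568.7, 2363, 1930 and 1945 CPM in high-score spots against 4492, 3965, 3773 and 3704, and 2 of its 10 genes were over 2-fold lower in every library. Slc17a7, the vesicular glutamate transporter, had ratios of 0.430, 0.424, 0.496 and 0.492, and Nefl, a neurofilament, 0.486, 0.422, 0.497 and 0.458. All 8 granule cell genes were below 1 in every library and 1, Pcp4, a calmodulin regulator, was over 2-fold lower in each. Neuroblast genes had summed ratios of 0.729, 0.708, 0.619 and 0.583, with 5 of 8 below 1 in every library and none over 2-fold. The dopaminergic list had 1.14, 1.24, 0.734 and 0.987 and the oligodendrocyte list 1.01, 0.916, 0.786 and 1.15, with no gene over 2-fold in every library. The reactive glia list had 2.56, 2.76, 1.55 and 1.80, and Serpina3n and Cd44 were over 2-fold higher in every library, Cd44 from only 2 and 3 UMIs in high-score spots of libraries 1 and 2. Of 5 ependymal and choroid plexus genes 2, Ttr and Kl, were over 2-fold higher in every library, and of 3 leukocyte and platelet genes none. Lists of hypoxia and glycolysis, and of immediate early genes, had no member over 2-fold in either direction in every library, with summed ratios of 0.748 to 0.800 and of 0.542 to 0.694. Over all genes tested 3.50% were over 2-fold higher and 0.306% over 2-fold lower in every library. Counts of 0 in these short lists are therefore no result.

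Flt1 and the endothelial and fibroblast lists also differed between classes of lower score. The other spots with a score above 0 were divided into 3 equal classes, and spots with a score of 0 were kept apart. In library 1, Flt1 stood at 73.3 CPM in high-score spots, at 48.3, 37.4 and 27.0 in the 3 classes from the upper to the lower, and at 24.4 in spots with a score of 0. In library 4 the values were 62.3, 32.9, 22.9, 16.8 and 16.4. The fibroblast list in library 3 stood at 2849, 1461, 618, 399 and 349 CPM. Not every class followed this order. Flt1 in library 2 stood at 29.4 and 29.8 in the middle and lower class, and the fibroblast list in library 4 at 388 in the lower class and 396 at a score of 0. The border macrophage list in library 4 stood at 159.8 CPM in the upper class, 57.7 in the lower class and 155.9 at a score of 0. Spots with a score of 0 were shallow, with a median of 2439, 2708, 5236 and 6273 UMIs, so a score of 0 also marks low depth.

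**Figure D3:**
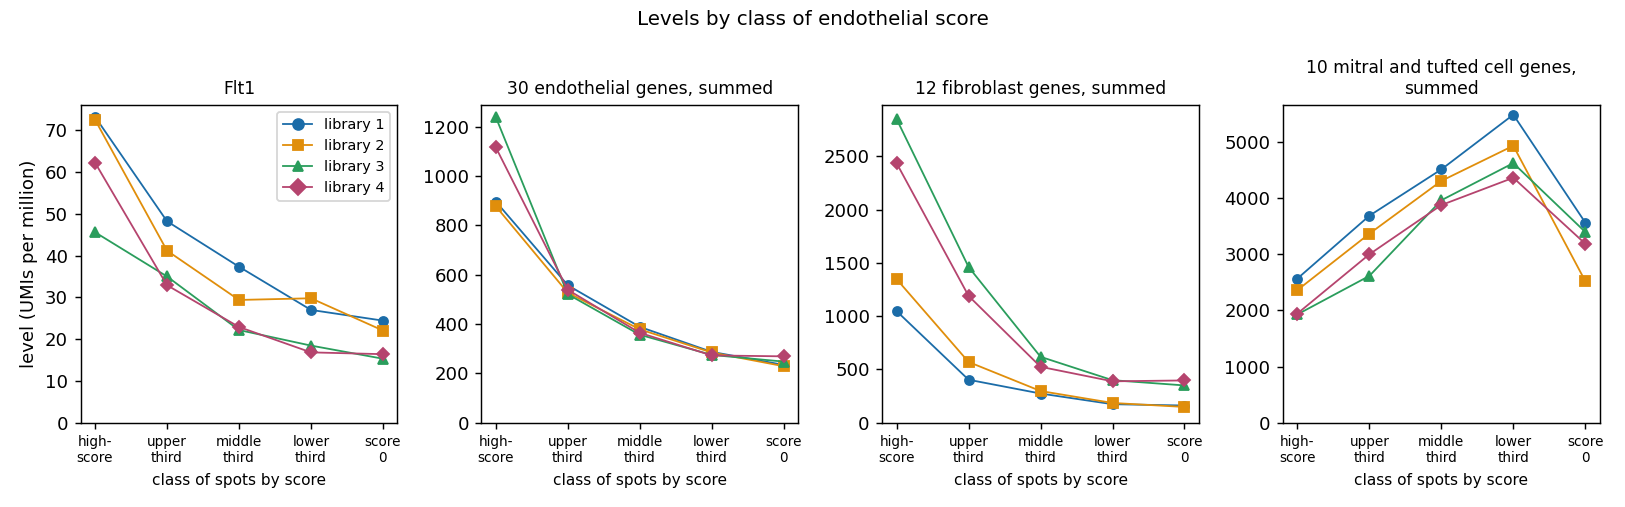
Level in CPM of Flt1, of 30 endothelial genes, of 12 fibroblast genes and of 10 mitral and tufted cell genes, by class of the score from high-score spots (left) to spots with a score of 0 (right). Lines are the 4 libraries. Flt1, endothelial and fibroblast genes are highest in the high-score spots, and mitral and tufted cell genes are highest in the lower class of spots with a score above 0, at 5491, 4937, 4628 and 4366 CPM in libraries 1 to 4.

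High-score spots overlapped with spots rich in other cells, vascular or not. The top 10% of spots by the fibroblast list held 71, 32, 60 and 38 of them, which is 42.8%, 45.1%, 46.5% and 40.4% of the high-score spots and the same share of the equally large fibroblast set. The top 10% by the smooth muscle list held 21.7%, 35.2%, 42.6% and 39.4% of them, and that by the endothelial list, which shares no gene with the score, 34.9%, 38.0%, 52.7% and 48.9%. The ensheathing glia list gave 41.6%, 47.9%, 45.0% and 36.2%, and the sensory axon list 38.6%, 43.7%, 34.1% and 23.4%. Of the other spots, 5.23% to 7.22% were in the top 10% by the endothelial list. High-score spots in the top 10% by none of 7 lists (endothelial, pericyte, smooth muscle, fibroblast, ensheathing glia, border macrophage and red blood cell) made up 27.1%, 12.7%, 6.98% and 10.6%.

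Spots chosen in the same number by other lists were set beside the high-score spots. The 5 score genes had summed ratios of 2.79, 2.86, 3.31 and 3.07 in spots chosen by the fibroblast list and of 1.80, 2.14, 2.87 and 3.08 in those chosen by the smooth muscle list, against 4.40, 4.35, 5.46 and 5.26 in high-score spots, where they are fixed by the choice, so the lower values elsewhere are no finding. For Flt1, which no choice used, the ratios were 2.13, 1.80, 2.34 and 2.07 in fibroblast spots and 1.94, 1.82, 2.18 and 2.21 in smooth muscle spots. Those of the high-score spots, 2.01 to 2.81, have intervals that overlap both. The endothelial list had 2.29, 2.51, 3.06 and 2.53 in fibroblast spots and 1.72, 2.17, 2.77 and 2.44 in smooth muscle spots, against 2.39, 2.46, 3.57 and 3.11. In every library the pericyte, smooth muscle, border macrophage and red blood cell lists had higher ratios in fibroblast spots than in high-score spots. The pericyte list had 3.31, 3.67, 3.60 and 2.83 in fibroblast spots against 2.79, 2.67, 3.19 and 2.75. The smooth muscle list had 4.68, 6.76, 8.80 and 5.42 against 2.82, 4.69, 3.99 and 4.81. In smooth muscle spots the pericyte list had lower ratios, of 2.17, 2.40, 2.78 and 2.64. The sets share spots, so these differences were not tested.

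With the top 10% of spots by the fibroblast list removed from both sets, 95, 39, 69 and 56 high-score spots remained. Flt1 then had ratios of 1.72 (1.19 to 2.41), 1.88 (1.05 to 3.16), 1.92 (1.19 to 2.95) and 3.03 (1.96 to 4.52). The number of genes over 2-fold higher in every library was 154 (1.15% of those tested) and that over 2-fold lower 33 (0.246%). Of the 154, 136 were among the 470 found over all spots (28.9% of the 470 and 88.3% of the 154). On the endothelial list 6 of 28 were past 2-fold in every library and 23 were above 1 in each. Of barrier transport genes 2 of 17 were past 2-fold, of arterial genes 1 of 8 and of basement membrane genes 2 of 11. Of smooth muscle genes 1 of 6 was. Over all spots these counts were 6, 4, 6 and 5. Venous genes had 3 of 8 and pericyte genes 2 of 12, against 4 and 3 over all spots. The sets are also smaller here, and the cause of the lower counts was not tested. Clec14a ranked first among the ranked genes outside the score at 5.64, 9.40, 6.40 and 10.4, though from 4, 4, 14 and 14 UMIs. The fibroblast list itself still had ratios above 1, of 1.58, 2.17, 2.78 and 2.90. These were below those of the endothelial list, at 2.05, 2.20, 3.17 and 3.12. The removal was made by the fibroblast list, so this change of order is no finding.

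Within the high-score spots, those in the fibroblast set were compared with the rest. Over 2-fold higher in every library were 114 genes (0.850%) and over 2-fold lower 29 (0.216%). The split was made by the fibroblast list, so the higher level of its members Dcn and Igf2 is fixed by the choice and is a description. Dcn stood at 712, 744, 880 and 960 CPM in fibroblast-rich high-score spots against 29.8, 58.2, 257 and 258 in the others. No endothelial list gene was over 2-fold in either direction in every library. Beside the shares of 0.850% and 0.216% over all genes, this count of 0 is no result. The summed endothelial list had ratios of 1.54, 1.45, 1.49 and 1.13. Flt1 had 1.67 (1.04 to 2.69), 1.60 (0.768 to 3.35), 1.29 (0.694 to 2.41) and 0.917 (0.478 to 1.72). Slc22a8, which leptomeningeal cells also express, stood at 124, 150, 266 and 118 CPM against 32.9, 32.8, 58.0 and 53.0, and was the barrier transport gene over 2-fold higher in every library. Mfsd2a in library 3 had 3 UMIs in the fibroblast-rich spots, 6.82 CPM, against 33.4 CPM in the other high-score spots, a ratio of 0.204 (0.0387 to 0.694), and in the other libraries 1.23, 1.29 and 0.856. Ifitm3 had ratios of 5.68, 5.07, 1.54 and 1.55, so it separated the fibroblast-rich spots most in libraries 1 and 2.

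**Figure D4:**
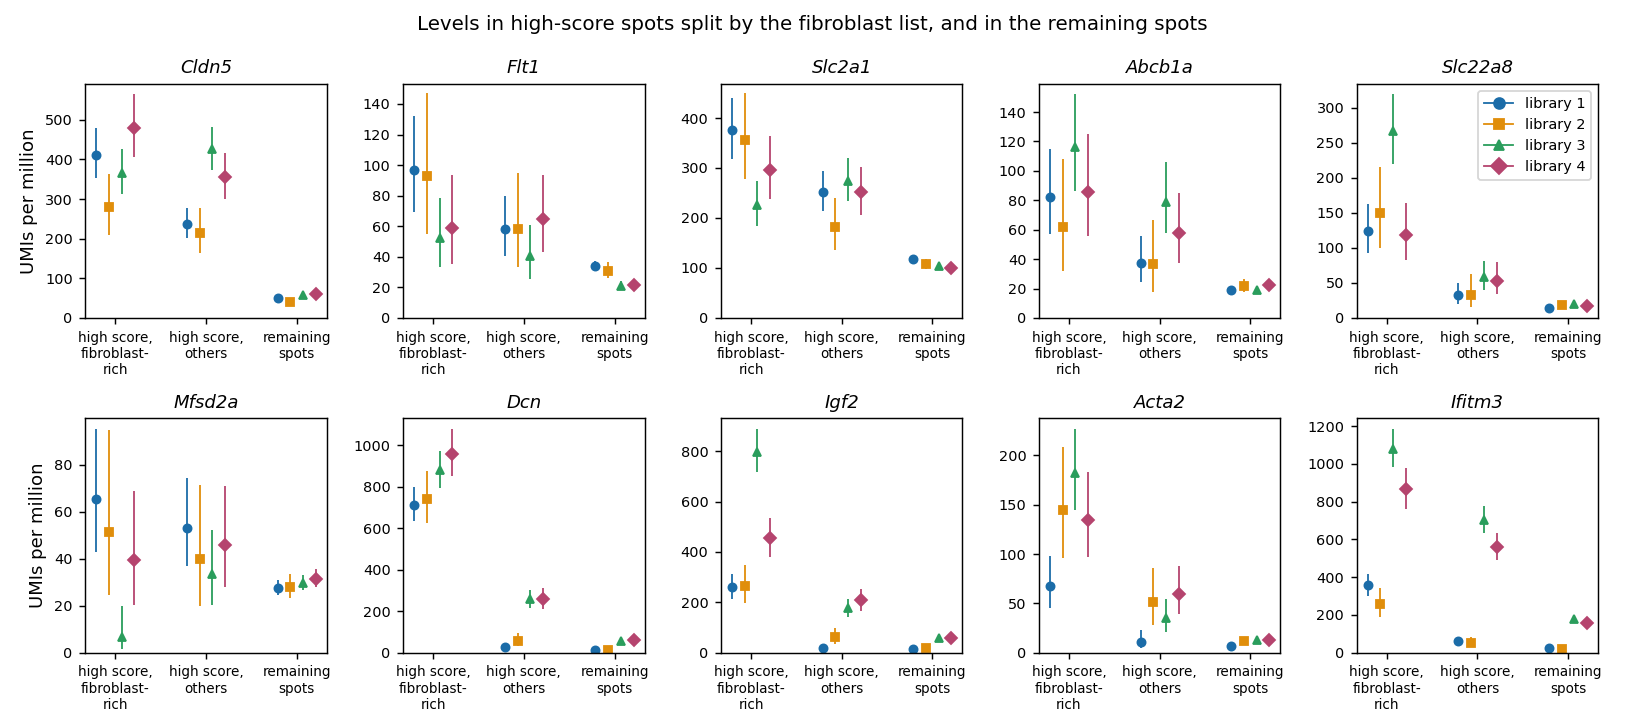
Levels in CPM of 10 genes in high-score spots within the top 10% of spots by the fibroblast list, in the other high-score spots, and in the remaining spots without that top 10%. Points are the 4 libraries and bars exact 95% intervals for counting error. Cldn5 chose the high-score spots and Dcn and Igf2 the fibroblast-rich kind, so their positions are fixed by the choice. Flt1, Slc2a1 and Abcb1a, which chose neither, are above the remaining spots in both kinds, Acta2 is highest in the fibroblast-rich kind, and Mfsd2a in library 3 is lowest there, at 6.82 CPM.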

How the data were processed

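The deposited files hold 1 matrix for all 4 libraries, with 32285 genes and 4713 spots, of counts (UMIs, whole numbers) that the authors obtained with Space Ranger, version 1.3.1 in the header. The submitters' processing notes name GRCm39, but the number of genes is that of an older vendor reference, so the build is uncertain. For read filters and annotation, nothing is stated in the labels. Positions and images were not used.

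Kept spots had at least 500 UMIs, which set aside 97. The members, gene lists and settings were chosen with earlier results of these data known. The 32 lists hold 318 genes, of which 292 had at least 100 UMIs. Level intervals are exact Poisson, ratio intervals exact conditional binomial and share intervals Clopper-Pearson. A gene was counted as over 2-fold when its log2 ratio, with a prior count of 0.5 scaled to each set's total, passed 1 in all 4 libraries. A sum of 3 UMIs corresponds to 2.86, 6.40, 2.98 and 4.06 CPM in high-score spots. List sums use all list genes. Named genes are the score genes and Flt1, list members with at least 20 UMIs in high-score spots, and the 20 highest and 10 lowest ranked genes without mitochondrial, ribosomal and unnamed gene models. Prdm8 and Ccnb1 were singled out after their values were seen. Some genes that this rule names are not reported here. The planned comparison of control with mutant was not run. Calculations used Python 3.11.15, NumPy 2.4.6, SciPy 1.17.1 and pandas 2.3.3 and were tested on simulated data.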

Additional observations from a re-analysis of the deposited data

How the results depend on the processing

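Ratios here are the lowest of the 4 libraries, and none of the 139 alternatives, of which 91 stayed within the interval of the reported value or within 1.5 times a reported count, moved a ratio to below 1. Of the 139, 25 were alternatives for the count of genes and hold no ratio. The alternatives that left out 1 library could not lower a ratio. Choosing spots after thinning each to 2000 UMIs lowered Flt1 from 2.01 to 1.25, the endothelial list from 2.39 to 1.96, the pericyte list from 2.67 to 2.01, the fibroblast list from 3.97 to 2.49 and the red blood cell list from 2.41 to 1.60, and left 161 genes over 2-fold higher in every library in place of 470. Thinned, Flt1 had ratios of 1.25 (0.644 to 2.25), 2.56 (1.07 to 5.48), 1.45 (0.592 to 3.07) and 2.26 (0.957 to 4.78), with 233, 89, 42 and 20 shallower spots left out. Fewer UMIs per spot choose the spots there, and the cause was not tested.

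With the top 5% of spots, the endothelial, smooth muscle, fibroblast and red blood cell lists were at 2.57, 4.30, 4.27 and 2.28, and with the top 20% at 2.20, 2.17, 3.13 and 2.04. A score without Cldn5 gave 2.22 for the endothelial, 2.22 for the pericyte, 3.32 for the fibroblast and 2.24 for the red blood cell list, and 272 genes. Without Ly6c1 the endothelial, fibroblast and red blood cell lists were at 2.21, 4.23 and 2.53. Without Itm2a the fibroblast and red blood cell lists were at 3.41 and 1.92, and without Slco1a4 or Pecam1 the red blood cell list was at 2.27 or 2.25. The mean of spot shares gave 3.34 for the fibroblast list.

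Without the top 10% of spots by the smooth muscle list, the endothelial, smooth muscle, fibroblast and red blood cell lists were at 2.22, 1.61, 3.52 and 2.09. Without that of the fibroblast list, the endothelial, pericyte, smooth muscle, fibroblast and red blood cell lists were at 2.05, 2.14, 1.52, 1.58 and 2.16, with 154 genes. With the top 10% by the smooth muscle, fibroblast or ensheathing glia list left out together, an alternative chosen after seeing the data, they were at 1.95, 1.94, 1.23, 1.58 and 1.72, with 58 genes from 72, 24, 28 and 29 high-score spots. Flt1 in those spots had ratios of 2.09 (1.43 to 2.98), 1.63 (0.730 to 3.20), 1.93 (0.869 to 3.73) and 2.58 (1.31 to 4.64) in libraries 1 to 4. Its interval thus includes 1 in libraries 2 and 3. Where the top spots of a list were removed, the lower ratio of that same list is no finding. Leaving out spots with fewer than 3 score UMIs was also chosen after seeing the data and moved no result.

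Counting only genes with at least 500 UMIs gave 239 genes, a 1.5-fold threshold 919 and a 3-fold threshold 144. The count of 41 genes over 2-fold lower in every library was less stable. It was 9 for a score without Cldn5 and 10 with the top 20% of spots, but 113 with the top 5% and 114 after thinning. Leaving out 1 library at a time gave 515 to 616 genes, Flt1 2.01 to 2.10, endothelial 2.39 to 2.46, pericyte 2.67 to 2.75, smooth muscle 2.82 to 3.99 (the latter without library 1), fibroblast 3.97 to 4.08 and red blood cell 2.41 to 2.84 (the latter without library 3). A lowest ratio, or a count over every library, cannot fall when a library is left out. These alternatives therefore show only how far the values rise. No paired analysis was possible because the library numbers match no label and no result comes from a test. Few UMIs per gene and spot limit the precision, and neighbouring spots share tissue.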

Other observations

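The 4 libraries match no label, and their values in high-score spots fell into separate clusters for some lists. The reactive glia list stood at 480, 474, 3262 and 3038 CPM in high-score spots of libraries 1 to 4 and at 187, 172, 2106 and 1692 in the other spots. The lesion phagocyte list stood at 201, 211, 2370 and 2221 CPM in high-score spots and at 221, 208, 1072 and 842 in the others. Lcn2, an iron-binding protein of reactive glia, had 2 and 1 UMIs in high-score spots of libraries 1 and 2 and 541 and 476 in libraries 3 and 4. The sensory axon list ran the other way, at 4146, 3512, 1013 and 1429 CPM in high-score spots. Libraries 1 and 2, and libraries 3 and 4, were the most alike pairs over all genes, with a chi-square per degree of freedom of 2.71 and 3.05 against 22.5 to 44.0 for the others. No library was assigned to a mouse from these values.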
